A study of Mus musculus with 6 samples.

Results

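The interferon response genes described here are 44 mouse genes that sense, relay or carry out the antiviral interferon response. They were given as 45 symbols, of which Gbp1 is the former symbol of Gbp2b. Every non-control probe whose gene name was an old or current symbol of these genes was taken, which gave 68 of the 41174 probes on the array, for 44 of 21039 named genes. RNA of whole prefrontal cortex was compared between 3 BTBR mice and 3 C57BL/6J mice on Agilent single-colour arrays, with 1 array a mouse. The BTBR mice carried the genotype BTBR T+ Itpr3tf/J, an inbred strain used as a model of autism-like behaviour, and the C57BL/6J mice were wild type. Both groups were male, 5 months old, and had been given no drug. The label field for strain background reads C57BL/6J for the BTBR mice too, while their titles, sources and genotype give BTBR, so the groups follow the genotype. BTBR is a separate inbred strain and not an edited C57BL/6J line, so each difference below is one between whole genomes.

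Interferons are secreted proteins that cells release when they find foreign or misplaced nucleic acid. Sensors in the cytosol bind double-stranded RNA and switch on Irf3 and Irf7, which start interferon transcription. Secreted type I interferon binds Ifnar1 and Ifnar2 on the same or neighbouring cells, and a complex that holds Stat2 and Irf9 then enters the nucleus. That complex binds the interferon-stimulated response element (ISRE) in the promoters of effector genes, while type II interferon acts through Ifngr1 and Ifngr2 and the gamma-activated site (GAS). In brain, a low tonic interferon signal keeps many effectors at a basal level, and microglia and endothelial cells respond strongly.

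The promoters of effector genes are shown first because they carry the DNA element that defines the response. The windows come from RefSeq in build GRCm38.p6, which is C57BL/6J sequence, and BTBR sequence was not used here. An ISRE core was searched as GAAA, any 2 bases and GAAA, and a GAS as TTC, any 3 bases and GAA, both on either strand, from 250 bases before to 50 bases after each start. In capitals are the ISRE cores, read as TTTC, any 2 bases and TTTC where they lie on the opposite strand.
Isg15, chr4:156200857-156200916, minus strand: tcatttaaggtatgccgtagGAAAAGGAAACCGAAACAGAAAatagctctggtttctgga
Bst2, chr8:71537566-71537625, minus strand: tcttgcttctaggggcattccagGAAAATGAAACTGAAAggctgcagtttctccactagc
Rsad2, chr12:26456539-26456598, minus strand: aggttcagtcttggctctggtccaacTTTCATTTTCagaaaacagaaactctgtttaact
Gbp2, chr3:142620578-142620637, plus strand: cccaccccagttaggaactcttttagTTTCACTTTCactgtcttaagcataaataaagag
Gbp2b, chr3:142594684-142594743, plus strand: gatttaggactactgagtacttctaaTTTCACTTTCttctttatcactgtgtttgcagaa
Igtp, chr11:58199496-58199555, plus strand: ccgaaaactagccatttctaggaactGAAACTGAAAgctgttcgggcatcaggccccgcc
Ifit1, chr19:34640769-34640828, plus strand: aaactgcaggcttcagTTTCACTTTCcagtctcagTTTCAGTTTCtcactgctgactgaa
Ifit3, chr19:34583364-34583423, plus strand: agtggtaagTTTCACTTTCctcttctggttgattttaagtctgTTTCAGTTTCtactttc
Isg15 holds 3 overlapping cores and Bst2 holds 2, while Ifit1 and Ifit3 hold 2 separate cores each. Of the 33 members with a promoter in the table, 17 (51.5%) held an ISRE core, against 1079 of 27025 genes (3.99%). The core was found in 14 of 22 effectors, 1 of 9 signalling genes (Stat2) and 2 of 2 sensors with a sequence. A GAS was found in 11 of 33 members (33.3%), against 9.55% of all genes, and in Bst2 and Ifitm3 it overlaps an ISRE core. Both an effector whose probe was lower in BTBR (Isg15) and effectors whose probes did not pass the test (Ifit1, Ifit3) are among these sequences. The core was present in 7 of 11 members past the test and in 10 of 22 members tested but not past it.

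Each BTBR array had fewer probes well above background than any C57BL/6J array, at 28100 to 29950 on the BTBR arrays and 29977 to 30665 on the C57BL/6J arrays. BTBR replicate 2 was lowest, at 68.2% of probes, with a dimmest measurable signal of -5.83, against -6.42 to -6.92 on the other 5 arrays. The 75th percentile of the signal was lower in BTBR, at 859 to 1184 units, against 1209 to 1607 units in C57BL/6J. A level, such as that dimmest signal, is given as the log2 ratio of a probe's signal to that percentile on its own array, so 0 marks the signal that 75% of probes do not exceed. Levels of different probes are not comparable. Markers of excitatory cortical neurons were all measured in both strains. Single mice stood apart on markers of neighbouring tissue: replicate 3 of C57BL/6J had a striatal neuron score of 2.46, against -0.96, 0.69 and -1.31 in the BTBR mice and -0.80 and -0.22 in the other C57BL/6J mice. That mouse also had the lowest excitatory cortical neuron score, at -0.67. The score was 0.16 and 0.22 in the others of its strain and 0.17, -0.09 and 0.28 in the BTBR mice. Replicate 2 of BTBR had a blood cell score of 2.19, with -0.63 and -0.47 in its strain and 0.42, -0.72 and -0.29 in C57BL/6J. On 3 tested choroid plexus markers, the score was -0.94, -0.65 and 0.55 in the BTBR mice, and replicate 1 of C57BL/6J stood apart at 2.73, with -1.58 and -0.39 in the others of its strain. For such a score, each gene was centred on its average across the 6 mice and the middle value of the listed genes was taken in each mouse. Results are therefore also given without the mice that stood apart on striatal and blood markers together, and without each of the 6 mice in turn. The arrays lay on 2 slides, with replicates 1 and 2 of each strain on slide 1 and replicate 3 of each on slide 2. Every slide 2 value therefore uses C57BL/6J replicate 3, the mouse with the striatal neuron score of 2.46.

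Several effector genes of the interferon response fell in BTBR cortex, among them Sp110, Xaf1, Isg15 and Gbp2, and the effectors Eif2ak2 and Gbp2b rose. With 1 mouse left out in turn, Sp110 passed in all 6 fits, Xaf1 in 3, and Isg15 and Gbp2 in 1 each. No probe of a sensor, receptor or signalling gene passed the test. Of the 68 probes, 58 probes of 42 genes passed the filter, a signal well above background on at least 3 arrays counted over both strains, and were tested. Among these, 9 fell and 2 rose in BTBR at an adjusted p under 0.05 (limma, Benjamini-Hochberg over all 30011 tested probes), with 1 of the 2, Gbp2b, tested only because it was measured in BTBR. Of the 9, a probe of Rsad2 was well above background on 1 BTBR array and all 3 C57BL/6J arrays, so it passed the filter through C57BL/6J. Over all tested probes 5.44% passed, with 3.25% lower and 2.19% higher in BTBR. Means were lower in BTBR on 42 and higher on 16 of the 58 probes, against 42.8% lower over all probes. The median log2 difference was -0.23 over member probes and 0.04 over all probes. By the brightest probe of each gene, the mean was lower in BTBR for 32 of 42 genes with a median of -0.29, against 48.2% of all named genes with a median of 0.01. All 3 BTBR mice lay below all 3 C57BL/6J mice on 21 member probes, against 11.0% of all probes, and above them on 7, against 11.9%. The median was -0.30 within slide 1 (all probes 0.05) and -0.13 between the single mice of slide 2 (all probes -0.00).

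**Figure D1:**
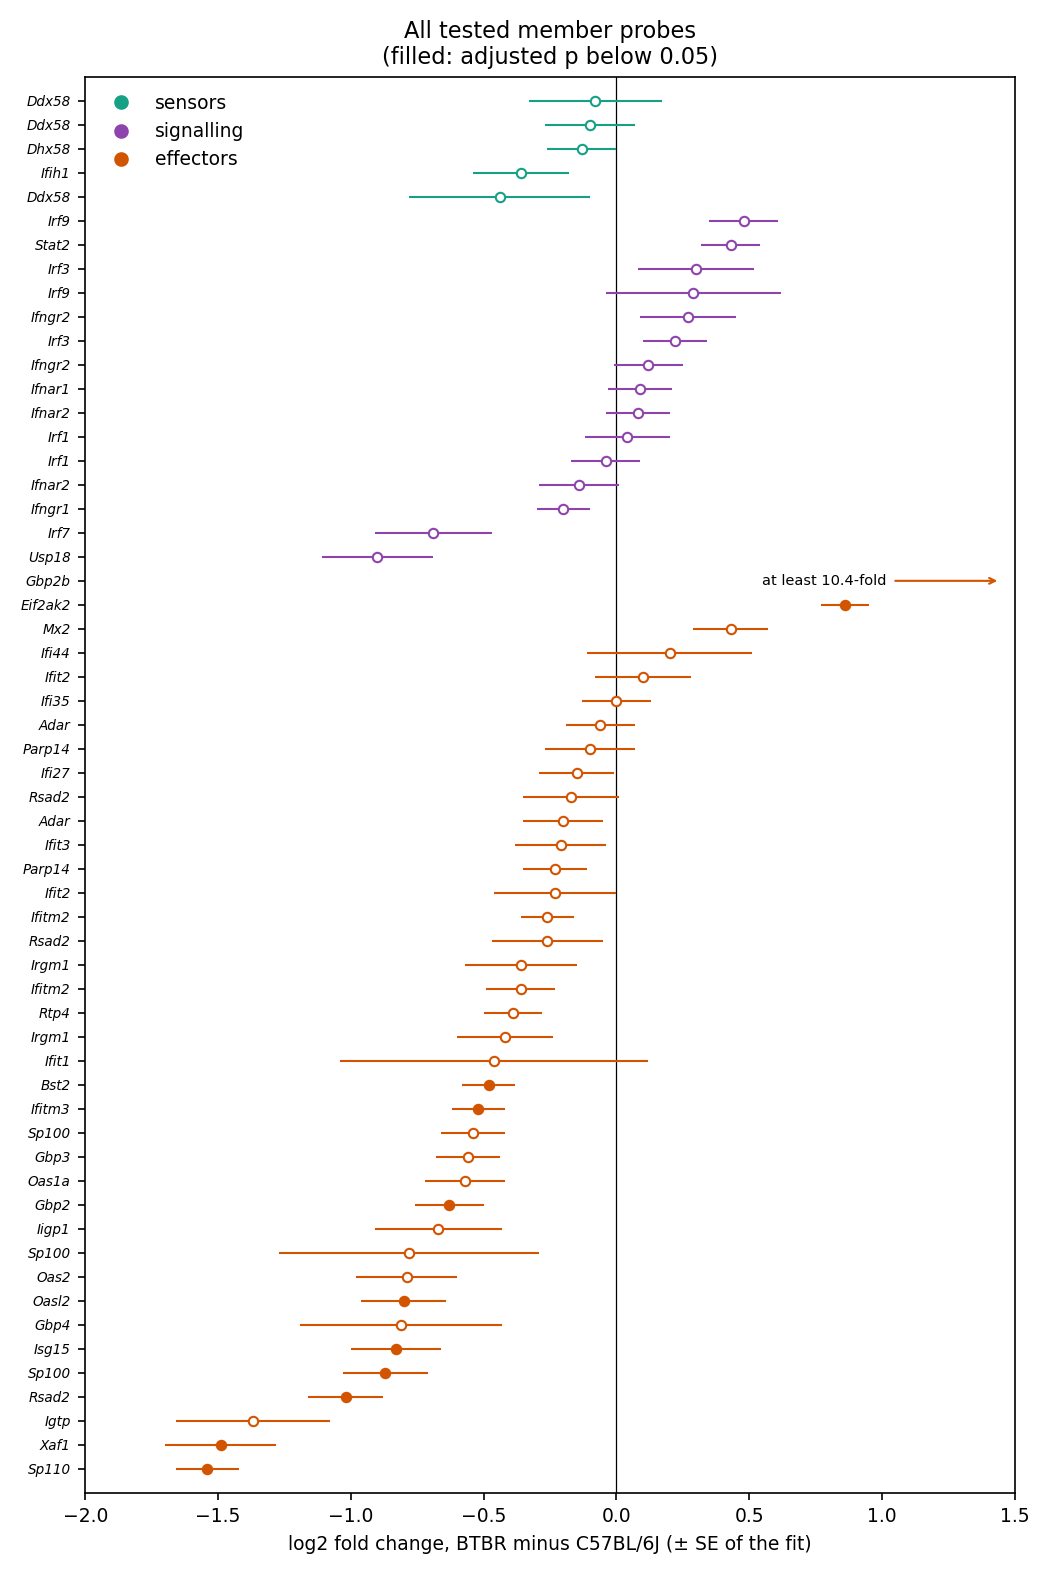
Log2 fold change of BTBR minus C57BL/6J (x axis, ± SE of the fit) for each of the 58 tested member probes, 1 row a probe, coloured by class, with filled points where the adjusted p is under 0.05. Effector probes crowd left of 0 with Sp110 at -1.54 lowest, and the arrow marks Gbp2b, for which only a bound of at least 10.4-fold higher is given.

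The size of these calls depended on the background correction and on single mice. Normexp background correction, run with an offset of 50 added to each signal, lowered the calls over all probes to 170. None of the 11 probes then passed (13 of 58 members at an unadjusted p under 0.05, limma), and the member median was -0.32 (all probes -0.09). The effects of the correction and of the offset were not tested apart. Leaving out each mouse in turn gave 1 to 8 probes lower in BTBR and 2 higher each time. The count lower was 1 without BTBR replicate 1, 3 without BTBR replicate 2, 8 without BTBR replicate 3, 4 without C57BL/6J replicate 1, 2 without C57BL/6J replicate 2 and 5 without C57BL/6J replicate 3. Sp110 and Eif2ak2 passed in all 6 of these fits. So did Gbp2b, but it passed the filter only through the BTBR arrays, so its passing is a description. Without C57BL/6J replicate 3 and BTBR replicate 2, which stood apart on striatal and blood markers, 3 probes were lower and the median was -0.32.

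The classes differed in where their probes lay. The 38 effector probes had a median difference of -0.41, with 32 means lower and 6 higher in BTBR, and they held all 11 probes past the test. The 15 signalling probes had a median of 0.09, with 5 means lower and 10 higher. The 5 sensor probes had a median of -0.13, and all 5 means were lower. The difference between classes was not tested, since the members were chosen with results known.

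**Figure D2:**
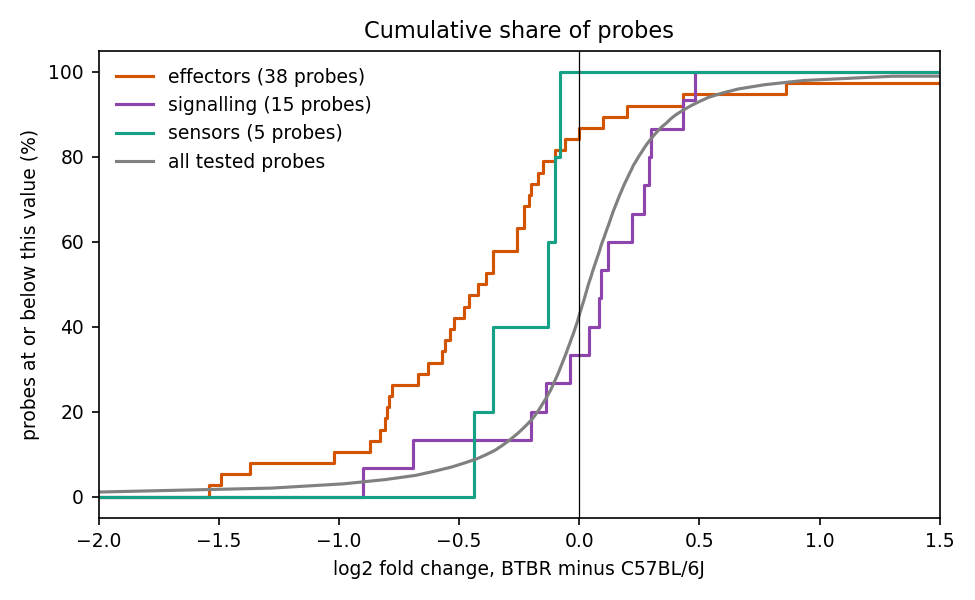
Cumulative share of probes (y axis, percent) at or below each log2 fold change of BTBR minus C57BL/6J (x axis), for effectors, signalling genes, sensors and all tested probes; Gbp2b lies beyond the right edge. The effector curve runs left of that of all probes, with medians of -0.41 and 0.04, and the signalling curve does not.

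None of the 3 cytosolic RNA sensors passed the test, and the lowest adjusted p among their 5 tested probes was 0.407 (limma, 0 probes at an unadjusted p under 0.05). That value belonged to Ifih1 (MDA5), which binds long double-stranded RNA, with levels of -2.06, -2.16 and -1.91 in BTBR and -1.49, -1.49 and -2.06 in C57BL/6J. The groups overlapped, because 1 C57BL/6J mouse, replicate 3, was as low as the BTBR mice. The difference was -0.36 ± 0.18 (SE, n = 3 each). Without that mouse the adjusted p was 0.0803, and within slide 1 the difference was -0.62 (adjusted p = 0.0581, limma). Dhx58 (LGP2), a regulator of the other sensors, differed by -0.13. Ddx58 (RIG-I), which recognises short RNA with a free triphosphate end, was read by 3 probes that differed by -0.44, -0.10 and -0.08. For the sensors, no difference larger than the spread between mice was detected.

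The 4 interferon receptor chains, read by 6 probes, had differences of -0.20 to 0.27, and none passed the test (limma, 0 at an unadjusted p under 0.05). Ifngr1, the ligand-binding chain of the type II receptor, had levels of 0.75, 0.64 and 0.68 in BTBR and 0.88, 0.92 and 0.88 in C57BL/6J. Each BTBR mouse was below each C57BL/6J mouse by a small margin, a difference of -0.20 ± 0.10 (adjusted p = 0.366). Ifngr2, the signalling chain of the same receptor, had differences of 0.27 and 0.12 on its 2 probes. Ifnar1 differed by 0.09, and the 2 probes of Ifnar2 differed by -0.14 and 0.08.

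The transcription factors and the feedback gene Usp18 lay on both sides of 0, and none of their 9 probes passed the test (limma, 4 at an unadjusted p under 0.05). Stat2, a subunit of the complex that binds the ISRE, had levels of 0.46, 0.47 and 0.62 in BTBR and 0.19, -0.05 and 0.12 in C57BL/6J. Irf9, the DNA-binding subunit of that complex, had levels of -0.46, -0.21 and -0.44 in BTBR and -0.97, -0.92 and -0.67 in C57BL/6J. For both genes every BTBR mouse was above every C57BL/6J mouse, with differences of 0.43 ± 0.11 for Stat2 (adjusted p = 0.104) and 0.48 ± 0.13 for Irf9 (adjusted p = 0.114). The second Irf9 probe, dim and measured on 2 BTBR arrays and 1 C57BL/6J array, differed by 0.29.

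Usp18, a protease that removes ISG15 from proteins and blocks the type I receptor, had levels of -3.57, -3.67 and -3.28 in BTBR and -2.99, -2.27 and -2.54 in C57BL/6J. Its BTBR mice were all lower, with a difference of -0.90 ± 0.21 (adjusted p = 0.0679), and it passed only when C57BL/6J replicate 1 was left out (adjusted p = 0.043) or with a trended, robust prior (0.0463). Irf7, the amplifier of interferon transcription, differed by -0.69 ± 0.22 (adjusted p = 0.164). Irf3 differed by 0.22 and 0.30 on its 2 probes. Irf1, a factor induced by type II interferon, differed by -0.04 and 0.04.

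Among membrane-associated effectors, Bst2 and Ifitm3 fell, and so did 1 of 3 Rsad2 probes, which passed the filter through the C57BL/6J arrays. All 7 tested probes of this role had lower means in BTBR. In bulk tissue, fewer cells of a type and less RNA per cell cannot be told apart for any of these genes. Ifitm3, which blocks fusion of virus with endosomes, had levels of 0.53, 0.59 and 0.66 in BTBR and 1.05, 1.19 and 1.11 in C57BL/6J. Bst2 (tetherin), which holds budding virus at the cell surface, had levels of -0.35, -0.29 and -0.48 in BTBR and 0.09, 0.11 and 0.13 in C57BL/6J. Neither gene's groups overlapped. Ifitm3 fell by 0.52 ± 0.10 (adjusted p = 0.0368) and Bst2 fell by 0.48 ± 0.10 (adjusted p = 0.0498) on the log2 scale. Both calls were lost when any 1 mouse was left out, with adjusted p of 0.0651 to 0.189 for Ifitm3 and 0.0899 to 0.201 for Bst2. With slide as a block they were 0.0569 and 0.0707. The 2 probes named Ifitm2 differed by -0.36 and -0.26, but the files place the second of them 94.1 Mb away on the other strand, so it is uncertain as a measure of Ifitm2.

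Rsad2 (viperin), an enzyme that makes a chain-terminating nucleotide, gave different sizes on its 3 probes. A 60-base probe split over 3302 bases of the gene had levels of -6.54, -6.61 and -6.29 in BTBR and -5.47, -5.28 and -5.61 in C57BL/6J. The BTBR mice were all lower, with a fitted difference of -1.02 ± 0.14 (adjusted p = 0.00988). This probe was well above background on 1 BTBR array and on all 3 C57BL/6J arrays, so it passed the filter through C57BL/6J. Its size and its call rest in part on BTBR signals that were not measured above background. With the authors' values the difference was -0.09 (adjusted p = 0.379), and without BTBR replicate 1 the adjusted p was 0.0567. A second split probe had levels of -5.95, -5.98 and -5.90 in BTBR and -5.88, -5.22 and -5.97 in C57BL/6J. The remaining probe, the brightest, had levels of -3.33, -2.88 and -3.19 in BTBR and -2.94, -2.73 and -3.22 in C57BL/6J. Both of these overlapped between strains, with differences of -0.26 and -0.17. The first 2 probes are shown because they read the same transcript at different places and gave different results.
Rsad2 probe past the test, chr12:27135585-27138886, mm9, minus strand: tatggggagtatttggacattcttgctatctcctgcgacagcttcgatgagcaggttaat
Rsad2 probe not past the test, chr12:27130424-27133462, mm9, minus strand: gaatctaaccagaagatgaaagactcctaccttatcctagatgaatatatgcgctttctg

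Among enzymes that act on or with double-stranded RNA, Eif2ak2 rose and Oasl2 fell. Eif2ak2 (PKR), a kinase that stops translation when it binds double-stranded RNA, had levels of -2.41, -2.36 and -2.36 in BTBR and -3.23, -3.20 and -3.28 in C57BL/6J. The mice within each strain were nearly equal, and BTBR was 1.82-fold higher (0.86 ± 0.09, adjusted p = 0.0038). The rise passed the test with any 1 mouse left out (adjusted p 0.0141 to 0.0305), and within slide 1 it was 0.83. Under normexp correction the value was 0.40 with an adjusted p of 0.962. Its probe lies at chr17:79252168-79252227 on the minus strand of mm9.

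Oasl2, an oligoadenylate synthetase-like protein, had levels of -2.64, -2.82 and -2.28 in BTBR and -1.86, -1.70 and -1.79 in C57BL/6J. The groups did not overlap, and Oasl2 fell by 0.80 ± 0.16 (adjusted p = 0.0396). Among the fits that left out 1 mouse, this call held without BTBR replicate 3 (0.017) and was lost in the other 5, with adjusted p up to 0.165. Oasl2 passed in 8 of 19 alternatives in all. Oas1a and Oas2, which make the second messenger that activates RNase L, differed by -0.57 ± 0.15 (adjusted p = 0.0946) and -0.79 ± 0.19 (adjusted p = 0.082). Every BTBR mouse was lower than every C57BL/6J mouse for both of these genes. Adar, which edits double-stranded RNA, differed by -0.20 and -0.06 on its 2 probes. The single probe of Oas1b was not measured well enough to be tested.

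Isg15, a ubiquitin-like protein that is joined to other proteins during the response, fell, while the Ifit genes did not pass the test. Isg15 had levels of -2.27, -2.13 and -2.10 in BTBR and -1.68, -1.16 and -1.18 in C57BL/6J. The groups did not overlap and the fall was 0.83 ± 0.17 (1.78-fold lower, adjusted p = 0.0411). Among the fits that left out 1 mouse, the call held without C57BL/6J replicate 1 (0.0177) and was lost in the other 5, reaching 0.17, and it was 0.0544 with slide as a block. It passed in 8 of 19 alternatives in all. Ifit1, Ifit2 and Ifit3, which bind foreign RNA and block its translation, differed by -0.46 ± 0.58 for Ifit1, by -0.23 and 0.10 for the 2 probes of Ifit2, and by -0.21 for Ifit3. The wide error of Ifit1 came with C57BL/6J levels of -6.36, -4.34 and -6.18, of which the middle mouse was far above the others. The same C57BL/6J mouse, replicate 2, was the highest of the 6 for Ifit3, at 0.87.

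Among interferon-inducible GTPases, Gbp2 fell and its neighbour Gbp2b rose. Gbp2, a guanylate-binding protein that attacks vacuoles holding pathogens, had levels of -1.83, -1.84 and -1.55 in BTBR and -1.21, -1.01 and -1.10 in C57BL/6J. It fell by 0.63 ± 0.13 without overlap (adjusted p = 0.0405), and among the fits that left out 1 mouse the call held without BTBR replicate 3 (0.0334) and was lost in the other 5, reaching 0.185 without BTBR replicate 1. It passed in 8 of 19 alternatives in all. Gbp3 differed by -0.56 ± 0.12 (adjusted p = 0.0536).

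Gbp2b, the gene formerly called Gbp1, was measured in BTBR only. Its levels were -3.64, -3.38 and -3.05 in BTBR and -8.79, -8.87 and -9.10 in C57BL/6J, where no array was well above background. Set against the dimmest measurable signal of the C57BL/6J arrays, Gbp2b was at least 10.4-fold higher in BTBR. The fit, which used the measured means of -3.35 in BTBR and -8.92 in C57BL/6J, gave an adjusted p of 5.08e-05. The probe passed the filter only through the 3 BTBR arrays, so it had to differ, and its call and its place among the 2 probes that rose are a description. Under normexp correction its difference shrank to 0.93 with an adjusted p of 0.962. A BTBR sequence variant under a single probe and a change in RNA cannot be told apart for any gene with 1 probe, and the Gbp, Ifit, Ifitm, Oas and Irgm families hold close copies whose cross-hybridisation was not tested. The Gbp2b probe lies at chr3:142281897-142281956 and the Gbp2 probe at chr3:142300719-142300778, both on the plus strand of mm9.

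Igtp (Irgm3), an immunity-related GTPase of lipid droplets and endoplasmic reticulum, had the widest gap among the members that missed the test. Its levels were -0.28, -0.08 and 0.48 in BTBR and 1.85, 1.48 and 0.91 in C57BL/6J. The groups did not overlap, and the difference was -1.37 ± 0.29 (adjusted p = 0.0512). It was -1.84 within slide 1 and -0.43 on slide 2, and it passed without BTBR replicate 3 (0.0403) or C57BL/6J replicate 3 (0.0337), and in 8 of 19 alternatives in all. Irgm1 differed by -0.36 and -0.42 on its 2 probes, Iigp1 by -0.67 ± 0.24 and Gbp4 by -0.81 ± 0.38. The Gbp4 levels in BTBR were -6.26, -6.16 and -4.84, and only the last, replicate 3, was well above background. Gbp4 passed when that mouse was left out (adjusted p = 0.0079, limma). That pass rests on BTBR signals not measured above background and is a description. Mx2 was the other GTPase with a higher mean, at 0.43 ± 0.14 (adjusted p = 0.18). The 9 tested GTPase probes had a median of -0.70 within slide 1 and 0.01 on slide 2.

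**Figure D3:**
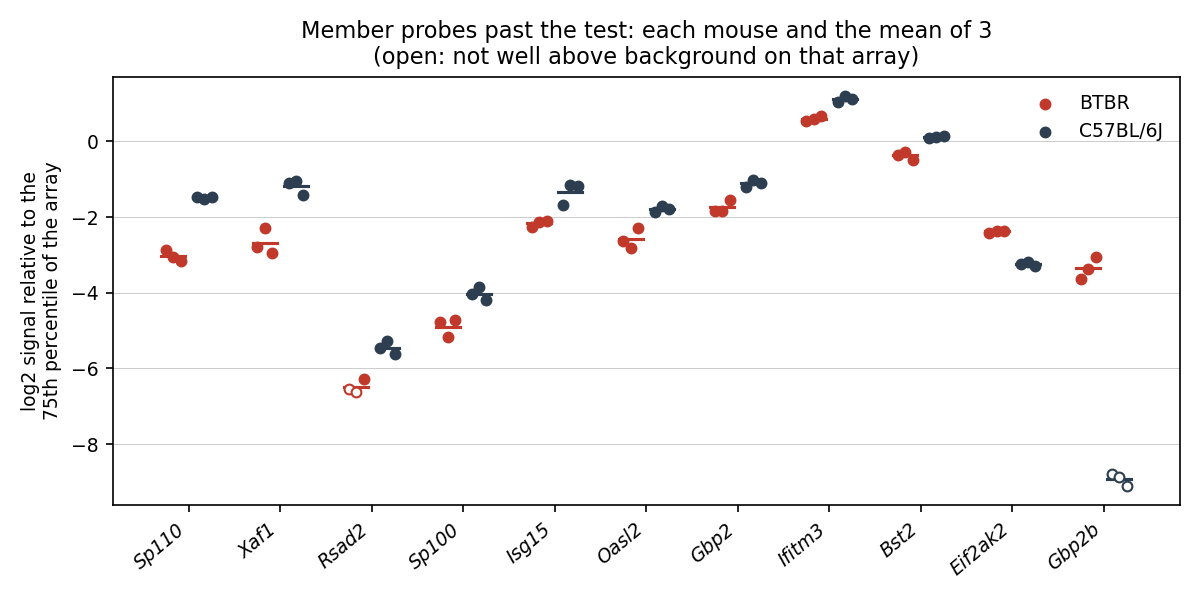
Log2 signal relative to the 75th percentile of the array (y axis) of the 11 member probes past the test, with 1 point a mouse, BTBR left of C57BL/6J, a bar for the mean of 3, and open points where the probe was not well above background. Strains do not overlap on any of the 11 probes, 9 with BTBR lower and 2, Eif2ak2 and Gbp2b, with BTBR higher.

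Nuclear and other induced effectors held the largest falls. Sp110, a nuclear protein of the speckled protein family, had levels of -2.86, -3.05 and -3.15 in BTBR and -1.46, -1.52 and -1.47 in C57BL/6J. Its BTBR mice were all far lower, at 2.91-fold (-1.54 ± 0.12, adjusted p = 0.000817). The fall passed the test with any 1 mouse left out (adjusted p 0.00345 to 0.00805), but not under normexp correction (-1.20, adjusted p = 0.126). The Sp110 probe lies at chr1:87473532-87473591 on the minus strand of mm9.

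Xaf1, a protein that counters inhibitors of apoptosis, had levels of -2.79, -2.28 and -2.96 in BTBR and -1.09, -1.06 and -1.41 in C57BL/6J. There was no overlap, and Xaf1 was 2.81-fold lower in BTBR (-1.49 ± 0.21, adjusted p = 0.0102). The difference was -1.46 within slide 1 and -1.55 on slide 2. Its adjusted p was 0.0521 without BTBR replicate 1, 0.0536 without C57BL/6J replicate 1 and 0.052 without C57BL/6J replicate 2. The probe, split over 2014 bases, is shown because the largest fall but one rests on it alone.
Xaf1 probe, chr11:72120129-72122142, mm9, plus strand: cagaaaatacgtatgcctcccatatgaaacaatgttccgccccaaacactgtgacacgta

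Sp100, a component of PML nuclear bodies from the same family, was read by 3 probes with lower means in BTBR. The probe past the test had levels of -4.78, -5.17 and -4.73 in BTBR and -4.03, -3.86 and -4.19 in C57BL/6J, a fall of 0.87 ± 0.16 (adjusted p = 0.0312). A brighter one had levels of -3.35, -3.22 and -3.38 in BTBR and -2.79, -2.63 and -2.92 in C57BL/6J, a difference of -0.54 ± 0.12 (adjusted p = 0.0579). Neither overlapped between strains. The last probe, measured on 1 BTBR array and 2 C57BL/6J arrays, had levels of -6.90, -7.97 and -6.32 in BTBR and -5.58, -6.47 and -6.81 in C57BL/6J, with overlap and a difference of -0.78. The call held without BTBR replicate 3 (0.0459) and without C57BL/6J replicate 3 (0.0481), and reached 0.123 without C57BL/6J replicate 2.

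The other genes of this role did not pass the test. Rtp4, a chaperone of receptors that also binds viral RNA, differed by -0.39 ± 0.11 (adjusted p = 0.116), with no overlap. Parp14, an ADP-ribosyltransferase, differed by -0.23 and -0.10 on its 2 tested probes, Ifi27 by -0.15, Ifi44 by 0.20 and Ifi35 by 0.00.

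Probes of the same gene mostly pointed the same way but seldom passed together. Of 13 member genes with at least 2 tested probes, 10 (76.9%) had all probes on the same side of 0, against 4285 of 7141 genes (60%). The median distance between the highest and lowest probe of a gene was 0.16 on the log2 scale, and 0.19 over all genes. The exceptions were Ifit2, Ifnar2 and Irf1, whose probes lay within 0.33 of each other and did not pass. Only Rsad2 and Sp100 had both several probes and a call, and neither was called on all of its probes, which over all genes held for 109 of 688 (15.8%). The remaining 9 called genes rest on 1 tested probe each.

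**Figure D4:**
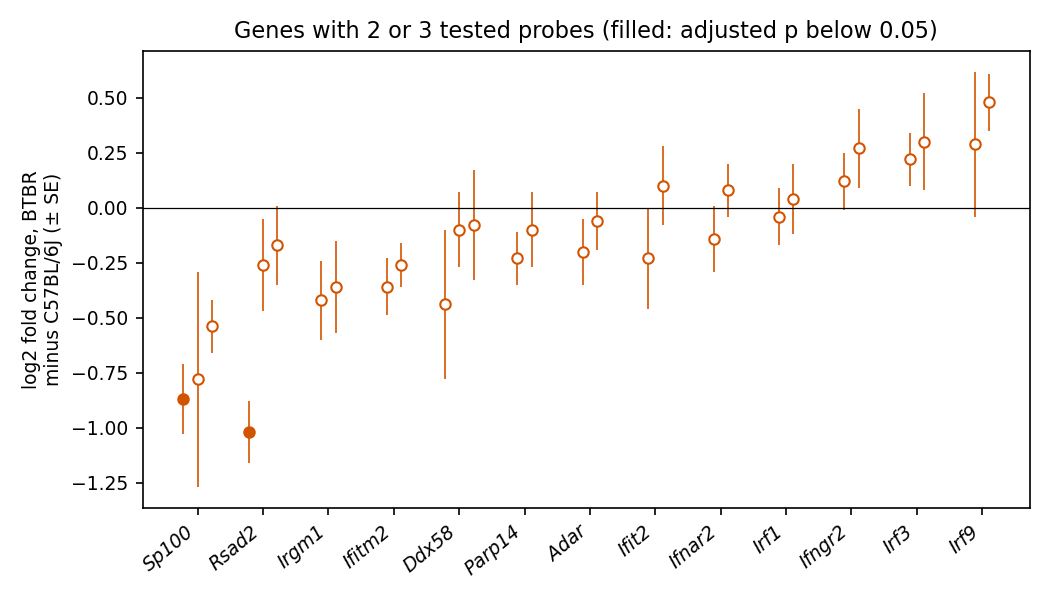
Log2 fold change of BTBR minus C57BL/6J (y axis, ± SE) for each probe of the 13 member genes with 2 or 3 tested probes, filled where the adjusted p is under 0.05. Rsad2 has 1 filled probe at -1.02 and others at -0.26 and -0.17, the widest spread of the 13 genes.

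Genes past the test lay beside one another at several places in mm9. Sp110 and Sp100 are on chromosome 1, and Gbp2b and Gbp2, with opposite directions, are on chromosome 3, where Gbp3 also lies. On chromosome 11, Irgm2, which fell, lies next to Igtp, which did not pass the test. The Ifit genes on chromosome 19 and the receptor genes Ifnar2, Ifnar1 and Ifngr2 on chromosome 16 held no call.

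Other genes of the interferon pathway, taken from a separate list of 67 of which 55 were tested, held 6 genes lower in BTBR and 0 higher at an adjusted p under 0.05 (limma, 17 and 2 at an unadjusted p under 0.05). The means were lower for 38 and higher for 17 of them, with a median of -0.14. Against this, 3.25% of all named genes were lower and 2.02% higher past the threshold. Irgm2, an immunity-related GTPase, had levels of -2.07, -1.69 and -1.66 in BTBR and -0.41, -0.33 and -0.21 in C57BL/6J, and fell by 1.49 ± 0.15 (adjusted p = 0.00251). Lgals3bp, a secreted glycoprotein, had levels of 0.99, 1.09 and 1.11 in BTBR and 2.15, 1.94 and 2.10 in C57BL/6J, and was 2-fold lower in BTBR (-1.0 ± 0.11, adjusted p = 0.00369). The strains were clearly apart for both genes.

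Ifi204 and Ifi203, neighbouring genes of the DNA-binding p200 family on chromosome 1, fell as well. Ifi203 had levels of -5.02, -4.73 and -4.81 in BTBR and -3.20, -3.75 and -3.35 in C57BL/6J (-1.42 ± 0.17, adjusted p = 0.00596). Ifi204 had levels of -6.29, -5.11 and -6.02 in BTBR and -3.87, -3.58 and -3.66 in C57BL/6J (-2.11 ± 0.30, adjusted p = 0.0115), and its other probe differed by -0.91. Gbp5 fell by 0.55 ± 0.10 (adjusted p = 0.0294). The sixth gene, Ifitm7, fell by 0.58 (adjusted p = 0.0311). Cxcl10, a chemokine that draws T cells, missed the test with levels of -6.20, -7.45 and -6.39 in BTBR and -5.21, -2.71 and -3.51 in C57BL/6J, without overlap (-2.87 ± 0.66, adjusted p = 0.0655). Its probe was well above background on only 3 of the 6 arrays. The BTBR levels lay near or below the dimmest measurable signals of their arrays, at -6.42, -5.83 and -6.92. The size of the Cxcl10 gap and its lack of overlap therefore rest in part on signals near background and are a description. Probes of the interferon genes Ifnb1 and Ifng were too dim to be tested.

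Scores over the interferon genes and over marker lists of cell types that respond to interferon were set side by side. The score of the interferon response genes was -0.18, -0.17 and -0.10 in BTBR and 0.11, 0.28 and 0.06 in C57BL/6J, without overlap. Of 15 microglia markers, all tested, 4 fell and 1 rose in BTBR, and the score was 0.00, -0.01 and -0.32 in BTBR and 0.06, 0.28 and 0.24 in C57BL/6J. The summed linear signal of the list, relative to the 75th percentile, was 55.2 to 68.2 in BTBR and 72.3 to 83.0 in C57BL/6J. The falls were of C1qb (-1.11), C1qc (-0.63), Trem2 (-0.65) and Fcrls (-1.15), while Cx3cr1 rose (1.22), each on its brightest probe. The other probe of Fcrls differed by 1.55, against the direction of the first, and that of Cx3cr1 by 0.23. Tyrobp (-0.69, adjusted p = 0.0583, limma) and Ctss (-0.68, adjusted p = 0.052) narrowly missed the test. The remaining markers, among them Tmem119 (0.03) and Csf1r (0.01), did not pass and differed by -0.19 (Gpr34) to 0.12 (P2ry12).

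None of 10 endothelial markers passed (limma, 3 lower at an unadjusted p under 0.05), with a median of -0.21 and sums of 24.4 to 26.9 in BTBR and 24.8 to 28.8 in C57BL/6J. Of 8 oligodendrocyte markers, 3 fell and all 8 means were lower, with sums of 105 to 118 in BTBR and 144 to 178 in C57BL/6J. Of 6 astrocyte markers 1 fell, with sums of 34.6 to 36.3 in BTBR and 33.7 to 38.7 in C57BL/6J. Every marker of these 4 lists was well above background on all 6 arrays. The part of microglia and oligodendrocyte differences in the lower effectors was not tested.

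**Figure D5:**
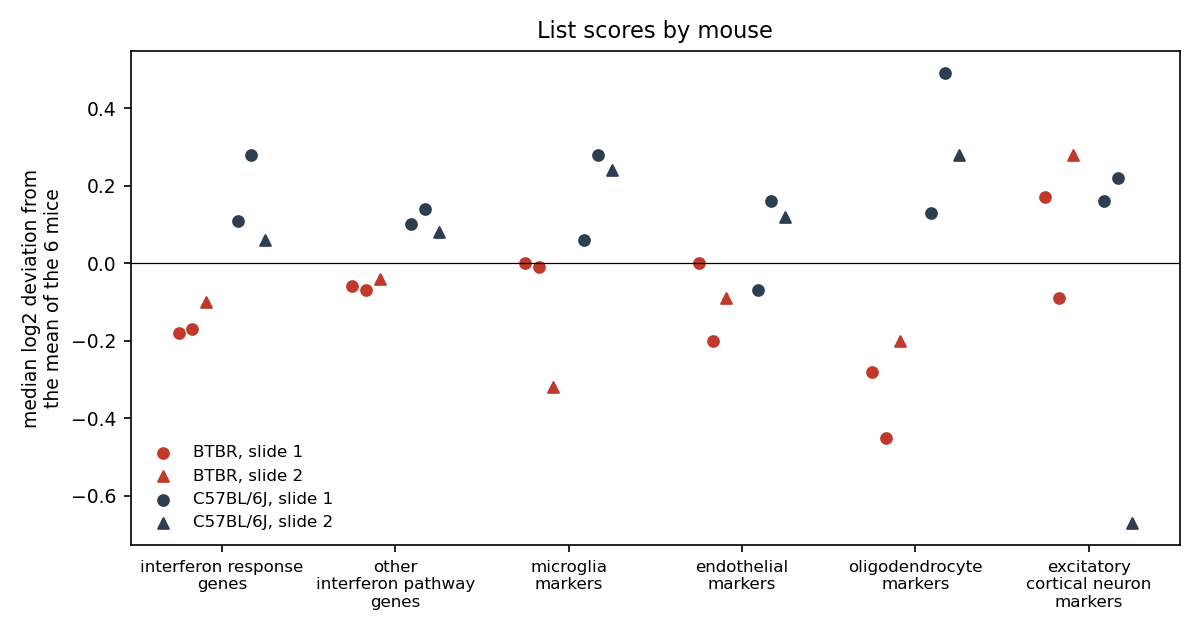
Score of each list (y axis, median log2 deviation from the 6-mouse mean) for each mouse, BTBR left of C57BL/6J, with circles for slide 1 and triangles for slide 2. Interferon response genes lie between -0.18 and -0.10 in BTBR and between 0.06 and 0.28 in C57BL/6J.

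The remaining 10 member probes were not tested because fewer than 3 arrays were well above background. On 6 of them no array was, on 2 only 1 C57BL/6J array was, and on 2 only 1 BTBR array was. Mx1, with 2 probes, and Oas1b had no tested probe. A probe of Mx1 was well above background on 1 C57BL/6J array, and the probe of Oas1b on none.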

How the data were processed

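Each mouse's RNA was labelled with Cy3 and hybridised to 1 array. The deposited scanner files hold intensity values on a linear scale, and the file headers name Agilent Feature Extraction 10.7.3.1 as the reader of the images, where the submitters' processing notes have version 9.1. The authors' matrix of log2 values, deposited with scaling and centring unstated (medians 8.82 to 8.83), served only as an alternative. Its strain differences followed the scanner's with r = 0.895 across 27342 probes and a slope of 0.549.

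From the log2 processed signal, the 75th percentile of the same array was subtracted. Spots of a probe were averaged, and an outlier-flagged spot was left out only where the probe had another, unflagged spot. Probes well above background on at least 3 of 6 arrays entered. They were fitted with limma 3.58.1 in R 4.3.3 (lmFit, eBayes, BTBR minus C57BL/6J) and adjusted by Benjamini-Hochberg over 30011 probes at 0.05. The fit was tested on simulated data. Genes were named through accessions or symbols of the GRCm38.p6 RefSeq table, which gave 27816 and 5503 probes, or synonyms (380); 1108 kept the file's name and 6367 had none. Positions are in mm9 per the file headers. ± marks the standard error of the fit. Probe counts use every tested probe, and gene counts the brightest.

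Named genes were the members with a call, up to 3 of the smallest p in a role without one, and up to 5 other pathway genes in each direction. Members, lists and markers were chosen with earlier results of these data known. Replicate numbers did not pair the mice: same-numbered mice deviated together with correlations of 0.03, -0.17 and -0.08. Precision is limited by the number of arrays, and p-values measure the spread between the 3 mice of each strain. In all, 19 alternatives were run. Results for some items are not reported here.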

Additional observations from a re-analysis of the deposited data

Results flagged for a closer look

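A probe of Ifih1 and a probe of Parp14, both outside the test, were each well above background on 1 BTBR array and on no C57BL/6J array. The Ifih1 probe had levels of -6.48, -6.63 and -6.18 in BTBR and -6.24, -6.46 and -7.27 in C57BL/6J, which overlap. The Parp14 probe had levels of -6.43, -6.50 and -6.37 in BTBR and -6.88, -6.69 and -6.77 in C57BL/6J, which do not overlap. Both lie near the dimmest measurable signal of the arrays, and no fold is given.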

How the results depend on the processing

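Of the alternatives to the main processing, normexp background correction changed most: 170 probes passed over the whole array (74.1% of them lower in BTBR, against 59.7% in the main processing), 0 member probes passed in either direction, the member median was -0.32, and 1 other pathway gene passed. The median of all probes moved to -0.09, against 0.04. With no filter on dim probes 3 members passed as lower, and with a filter on all 6 arrays 1 passed as higher, because Gbp2b was then not tested. With 1 probe a gene 932 probes passed of the fewer tested. With the authors' values the median was -0.09, and within slide 1 it was -0.30. With slide as a block 5 members were lower. With the replicate block, whose numbers do not pair the mice, 922 probes and 2 lower members passed. Eif2ak2, Sp110 and Xaf1 kept their calls, as did Gbp2b, which passed the filter only through the BTBR arrays. Without C57BL/6J replicate 3 and BTBR replicate 2 the values were 1008 probes, 3 lower members, a median of -0.32 and 3 other pathway genes. Leaving out each mouse in turn gave 858 to 1472 probes, 1 to 8 lower and 2 higher members, a median of -0.30 to -0.17, 3 to 7 other pathway genes, 30 to 33 genes with a lower mean, and 8 to 12 genes with probes of 1 sign. The member median and the called probes kept their direction under every alternative run, and the causes were not tested. Signals near background limit Rsad2, Gbp4, Oas2, the dim probes of Irf9, Ddx58 and Sp100, and the other pathway gene Cxcl10.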
